A study of Homo sapiens with 4 samples.

Results

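The ATP-binding cassette (ABC) genes encode membrane pumps, and a few soluble proteins built from the same domain, and they were examined here in HNSCC cells with and without acquired cisplatin resistance. The members were all genes of the array whose symbol is ABC followed by a subfamily letter from A to G and a number, which gave 46 of 43305 genes measured. By subfamily these were 12 ABCA, 9 ABCB, 12 ABCC, 4 ABCD, 1 ABCE, 3 ABCF and 5 ABCG genes. HN4 and HN30 are established human head and neck squamous cell carcinoma lines, and both parental lines were grown in DMEM with 10% FBS and without the drug. HN4_CR and HN30_CR (HN4/DDP and HN30/DDP in the methods) are their resistant derivatives, selected in rising doses of cisplatin, which forms platinum adducts on DNA. By the labels, the resistant cells were kept in medium with 20 μM cisplatin for 48 h, so resistance and the presence of the drug cannot be told apart in these data. The sources used here do not say whether the resistant lines were clones. Each of the 4 lines was measured once, on 1 one-colour Agilent expression array, so a difference between a resistant line and its parent has no replicate check and no test.

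An ABC transporter binds ATP at a pair of cytoplasmic domains and uses its hydrolysis to move a substrate through a membrane. The ABCA and ABCG subfamilies are known for lipid and sterol transport, ABCB and ABCC hold the pumps known from multidrug resistance, and ABCD proteins bring fatty acids or their derivatives into peroxisomes. ABCE and ABCF proteins have no membrane domain and act in translation. The platinum of cisplatin can leave a cell after coupling to glutathione, and ABCC2, which exports such conjugates, has long been linked to resistance to the drug.

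A level is the log2 processed signal of a probe minus the 75th percentile of its array, so that 0 is the signal of a gene brighter than most. A difference is the level on the resistant array minus the level on the parental array of the same line. A member was called higher or lower when the difference passed 1 on the log2 scale and the brighter array of the pair was well above background, as marked by the scanner software. The only error available for 1 array is the scanner SD, which comes from the software's error estimate of each spot and covers neither culture nor hybridisation. Its median over the members was 0.21 for the difference in either line. The 60901 spots that were not controls held no saturated spot, and from 55.3% to 63.6% of them were well above background. Of the 46 members, 30 were well above background on all 4 arrays, 7 on some of them and 9 on none. Those 9 were ABCA4, ABCA8, ABCB11, ABCC9, ABCC11, ABCC12, ABCC13, ABCD2 and ABCG5, and they had only an upper bound here.

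The study concerns CREB5, a factor of the CREB/ATF family, so sequence before the start sites of the members was searched for the half-site and the palindrome that such factors bind, and for the core of the antioxidant response element, which NRF2 binds together with MAF proteins. RefSeq promoters of GRCh38.p14, running from 250 bases before to 50 after the start, were at hand for 35 of the 46 members and for 27305 genes in all. The half-site TGACG was found on either strand in 14 of the 35 members (40%) and in 25.0% of all promoters. The full palindrome TGACGTCA, which contains the half-site, occurred in 1 member, ABCE1, and in 1.98% of all promoters. The core of the antioxidant response element, TGACNNNGC, occurred in 7 members (20%) and in 13.6% of all promoters. The 5 sequences printed here are the 250 bases before the start, 5′ to 3′, of members that the results turn on. Capitals mark any of these letters on either strand.
ABCA1, chr9:104928156-104928405, minus strand: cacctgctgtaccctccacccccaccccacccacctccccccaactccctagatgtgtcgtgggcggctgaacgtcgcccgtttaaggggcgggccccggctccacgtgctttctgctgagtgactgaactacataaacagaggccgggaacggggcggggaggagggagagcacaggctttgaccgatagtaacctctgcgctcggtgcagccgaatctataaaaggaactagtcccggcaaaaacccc
ABCC2, chr10:99782390-99782639, plus strand: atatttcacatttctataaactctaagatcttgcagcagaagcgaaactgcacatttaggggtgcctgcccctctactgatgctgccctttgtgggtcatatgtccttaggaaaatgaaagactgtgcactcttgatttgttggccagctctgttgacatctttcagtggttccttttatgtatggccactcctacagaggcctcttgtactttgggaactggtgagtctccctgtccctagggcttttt
ABCD3, chr1:94418139-94418388, plus strand: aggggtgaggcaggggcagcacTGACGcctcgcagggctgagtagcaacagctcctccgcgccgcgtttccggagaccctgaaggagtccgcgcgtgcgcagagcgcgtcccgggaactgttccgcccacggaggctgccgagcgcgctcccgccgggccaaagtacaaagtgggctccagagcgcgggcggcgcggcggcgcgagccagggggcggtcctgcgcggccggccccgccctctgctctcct
ABCE1, chr4:145098061-145098310, plus strand: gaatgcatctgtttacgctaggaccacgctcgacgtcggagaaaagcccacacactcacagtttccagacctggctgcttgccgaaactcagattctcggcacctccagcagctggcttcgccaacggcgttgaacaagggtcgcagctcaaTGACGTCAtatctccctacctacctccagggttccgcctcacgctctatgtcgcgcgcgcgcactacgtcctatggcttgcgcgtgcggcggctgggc
ABCF1, chr6:30571192-30571441, plus strand: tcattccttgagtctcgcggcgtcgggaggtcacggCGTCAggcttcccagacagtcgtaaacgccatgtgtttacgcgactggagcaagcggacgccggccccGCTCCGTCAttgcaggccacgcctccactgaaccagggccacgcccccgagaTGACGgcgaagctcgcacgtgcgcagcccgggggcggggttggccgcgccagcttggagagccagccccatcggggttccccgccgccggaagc
ABCA1 and ABCC2 held none of the searched letters in this window, ABCD3 held 1 half-site, ABCE1 held the palindrome at positions -98 to -91 from its start, and ABCF1 held 3 half-sites, of which one overlaps a core of the antioxidant response element at positions -146 to -138 on the minus strand. All 4 members that act in translation, ABCE1, ABCF1, ABCF2 and ABCF3, held at least 1 half-site. Among the other called members with a promoter, half-sites were found before ABCA12 and ABCB9 (higher in HN4_CR), ABCB6 (lower in HN4_CR) and ABCC4 (lower in HN30_CR). None was found before ABCG4 (higher in HN30_CR), ABCA6 (lower in HN4_CR), ABCB10 (lower in HN30_CR), or ABCA13 and ABCG2, which were higher in HN4_CR and lower in HN30_CR. A match of letters is a description of sequence and was not tested for binding.

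The members called were counted against the share of all genes that passed the same limit. In HN4_CR 8 members (17.4%) were higher, against 5.82% of all genes, and 4 (8.7%) were lower, against 5.31%. In HN30_CR 8 members (17.4%) were higher, against 12.9% of all genes, and another 8 were lower, against 8.71%. Genes with a curated RefSeq transcript, a class to which most members belong, had higher shares, near those of the members in HN30_CR, 7.93% higher and 6.64% lower in HN4_CR and 13.6% higher and 14.6% lower in HN30_CR. The family did not move as a block. Its median difference was -0.18 in HN4 and -0.16 in HN30, and the median of all genes was -0.20 and -0.07. Members higher in both lines were ABCA1, ABCC2, ABCC8 and ABCG1 (8.7%, against 2.67% of all genes and 3.91% of those with a curated transcript). ABCD3 was the single member lower in both (2.17%, against 1.17% and 1.8%). ABCA13, ABCB4 and ABCG2 went opposite ways in the 2 lines (6.52%, against 1.26% and 1.53%). With a limit of 2, 3 members were higher in HN4_CR (2.24% of all genes) and 2 lower (1.36%), and 4 were higher in HN30_CR (5.46%) and 1 lower (1.81%). With that limit, ABCA1 and ABCG1 were higher in both lines (0.693% of all genes), none was lower in both (0.0808%), and ABCB4 was opposite (0.166%). The lower call of ABCB4 in HN4_CR at either limit rests on an array that was not well above background, and against the lowest detected level there HN4 was 0.84 higher, which passes neither limit.

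**Figure D1:**
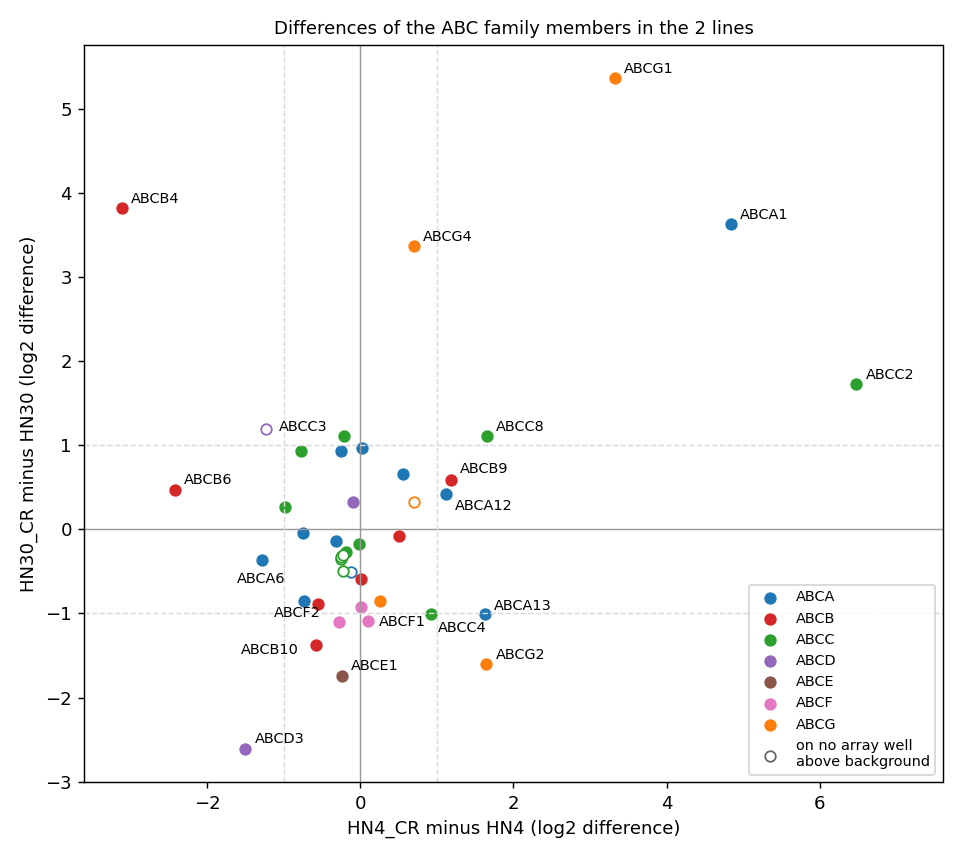
Difference of 44 members in HN4 (horizontal axis, HN4_CR minus HN4) and HN30 (vertical axis, HN30_CR minus HN30), both on the log2 scale, coloured by subfamily, with open points for the 9 members that were on no array well above background and dashed lines at 1 and -1. ABCA1, ABCG1 and ABCC2 lie far up and to the right, ABCD3 is the filled point past -1 on both axes, and ABCB4 lies at -3.11 in HN4 and 3.82 in HN30, with 1 array of each pair not well above background.

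The largest differences shared by both lines belonged to exporters of sterols. ABCA1, which loads cellular cholesterol and phospholipid onto apolipoproteins, had levels of -4.97 in HN4, -0.12 in HN4_CR, -3.79 in HN30 and -0.16 in HN30_CR. Both resistant arrays thus lay close to each other and far above both parental arrays, of which HN4 was not well above background. The difference was 4.84 in HN4 (scanner SD 0.41), a signal at least 24.3-fold higher, and 3.63 in HN30 (scanner SD 0.26), a 12.4-fold higher signal. With other processing of the arrays it ran from 2.74 to 4.92 in HN4 and from 2.27 to 3.89 in HN30. The probe lies at chr9:107543704-107543763 (hg19, minus strand). A second ABCA1 probe, at chr9:107624012-107624071, was dim on both parental arrays. Its resistant arrays lay 0.83 (HN4_CR) and 0.80 (HN30_CR) above the lowest detected level of the parental array, short of the limit of 1.

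ABCG1, which passes cholesterol on to lipoprotein particles, had levels of -4.29 in HN4, -0.96 in HN4_CR, -5.12 in HN30 and 0.24 in HN30_CR (probe at chr21:43716784-43716843, hg19, plus strand). The resistant arrays were again the high ones, and parental HN30 was not well above background. Its difference was 3.33 in HN4 (scanner SD 0.30), a 10.0-fold higher signal, and 5.37 in HN30 (scanner SD 0.47), at least 28.6-fold higher. With other processing it ran from 1.84 to 3.41 in HN4 and from 2.93 to 5.63 in HN30. ABCG4, a sterol exporter known mainly from the brain, had levels of -4.38, -3.67, -3.87 and -0.51 in HN4, HN4_CR, HN30 and HN30_CR. HN30_CR was the array that stood out, 10.3-fold above its parent (difference 3.37, scanner SD 0.27), while the difference in HN4 was 0.70 (scanner SD 0.34).

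The other lipid transporters of the ABCA subfamily moved less and not together. ABCA12, which carries glucosylceramide into the lamellar granules of keratinocytes, had levels of 3.01 in HN4, 4.13 in HN4_CR, 1.73 in HN30 and 2.16 in HN30_CR. It was higher in HN4_CR by 1.11 (scanner SD 0.20), and both HN4 arrays lay above both HN30 arrays. ABCA13, a very large member, had levels of -3.47 in HN4, -1.85 in HN4_CR, -3.33 in HN30 and -4.33 in HN30_CR. Its difference was 1.62 in HN4 and -1.001 in HN30, with scanner SDs of 0.25 and 0.31. ABCA6, one of a cluster of related genes on chromosome 17, had levels of -3.91, -5.19, -4.45 and -4.81 in the same order of arrays and was well above background on the parental arrays only. In HN4_CR its signal was lower, HN4 being at least 2.04-fold above it. ABCA2, ABCA3, ABCA5, ABCA7, ABCA9 and ABCA10 were well above background on every array and were called in neither line. Their differences ran from -0.85 for ABCA10 in HN30 to 0.97 for ABCA2 in HN30. A second ABCA2 probe, well above background on both HN30 arrays, differed by 1.41 there, past the limit. Under 5 other scalings the HN30 difference of ABCA9 ran from 0.52 to 1.48. Whether the ABCA9 probe matches other parts of the genome was not examined.

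ABCB4, a phospholipid exporter of the bile canaliculus, had levels of -4.11 in HN4, -7.22 in HN4_CR, -6.30 in HN30 and -2.49 in HN30_CR. Only parental HN4 and resistant HN30_CR were well above background, so the high array was the parent in one line and the resistant line in the other. HN4 was at least 1.79-fold above HN4_CR, a bound short of the limit, and HN30_CR at least 4.32-fold above HN30. The scanner SD of these differences was 1.47 and 0.99, wider than for most members. The sterol half-transporters ABCG5 and ABCG8 form a dimer, and ABCG5 was on no array well above background, while ABCG8 was so in parental HN30 alone. Of the 17 members listed as lipid and sterol exporters, 4 were higher and 2 lower in HN4_CR (5.82% and 5.31% of all genes). In HN30_CR 4 were higher and 1 lower (12.9% and 8.71% of all genes). Among genes with a curated transcript, 7.93% were higher and 6.64% lower in HN4_CR, and 13.6% higher and 14.6% lower in HN30_CR.

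**Figure D2:**
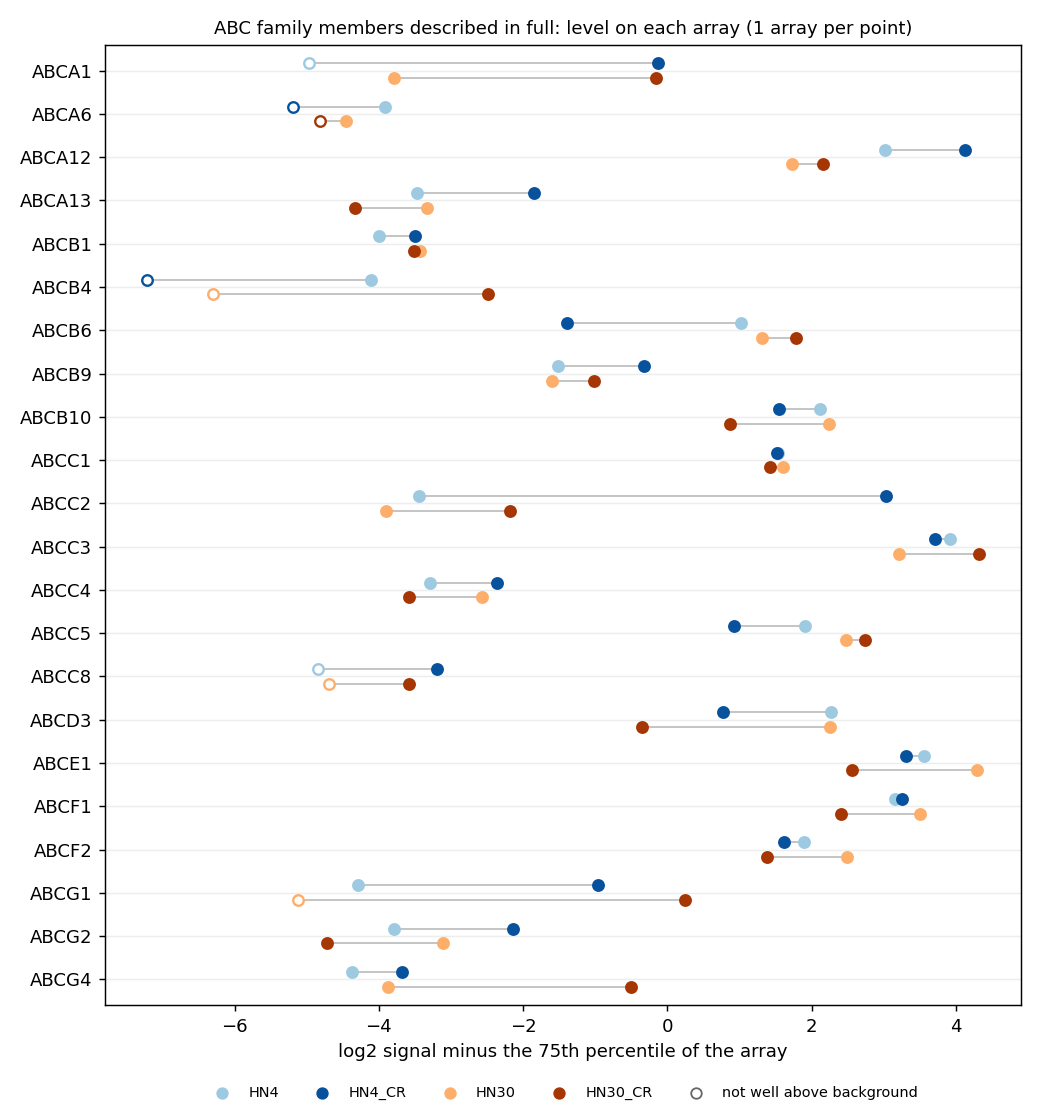
Level on each of the 4 arrays (horizontal axis, log2 signal minus the 75th percentile of the array) for the 22 members described with all their values, with a grey line joining a resistant array to its parent and open circles where the probe was not well above background. The HN4_CR and HN30_CR points of ABCA1 nearly coincide at -0.12 and -0.16, and ABCC2 spans from -3.45 to 3.03 in HN4. Levels may be compared along a row and not between rows, which are different probes.

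Among the pumps of drugs and conjugates, ABCC2 had the largest difference of the whole family. ABCC2 (MRP2) exports glutathione, glucuronide and sulfate conjugates. Its levels were -3.45 in HN4, 3.03 in HN4_CR, -3.91 in HN30 and -2.18 in HN30_CR, with every array well above background. HN4_CR stood far above the other arrays, and HN30_CR was above both parental arrays. The signal was 89.0-fold higher in HN4_CR (difference 6.48, scanner SD 0.24) and 3.30-fold higher in HN30_CR (difference 1.72, scanner SD 0.28). These values come from the probe at chr10:101611322-101611381 (hg19, plus strand), which carries the accession of the RefSeq transcript NM_000392.
ABCC2 probe: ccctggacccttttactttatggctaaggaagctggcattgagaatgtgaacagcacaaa
A second ABCC2 probe, at chr10:101557594-101557653 and assigned to an Ensembl transcript, was well above background on the resistant arrays only. Its resistant arrays lay -0.08 in HN4_CR and 0.12 in HN30_CR from the lowest detected level of the parental array, so the calls of ABCC2 hold for the first of these probes only. The HN30 call of ABCC2 was also lost with normexp background correction, at 0.81.

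ABCB1 (P-glycoprotein), the best known multidrug pump, was called in neither line. Its levels were -4.00 in HN4, -3.49 in HN4_CR, -3.43 in HN30 and -3.51 in HN30_CR, and the differences were 0.51 (scanner SD 0.29) and -0.08 (scanner SD 0.27). Its second probe was on no array well above background. ABCC1 (MRP1) had nearly the same level on every array, 1.53, 1.52, 1.61 and 1.43 in HN4, HN4_CR, HN30 and HN30_CR, with differences of -0.01 and -0.18 (scanner SD 0.20 each) whose sign changed with the scaling between arrays.

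ABCG2 (breast cancer resistance protein) had levels of -3.79 in HN4, -2.14 in HN4_CR, -3.11 in HN30 and -4.72 in HN30_CR. It was 3.13-fold higher in HN4_CR and 3.03-fold lower in HN30_CR (differences 1.65 and -1.60, scanner SDs 0.26 and 0.35). The resistant arrays were therefore the highest and the lowest of the set. ABCC4 (MRP4), which exports cyclic nucleotides, had levels of -3.29, -2.36, -2.58 and -3.59 in HN4, HN4_CR, HN30 and HN30_CR. It differed by 0.92 (scanner SD 0.24) in HN4, short of the limit, and by -1.01 (scanner SD 0.25) in HN30.

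ABCC3 (MRP3), another pump of conjugates, gave opposite readings from its probes. The probe for NM_003786, at chr17:48768701-48768760, had levels of 3.92 in HN4, 3.71 in HN4_CR, 3.21 in HN30 and 4.32 in HN30_CR, with differences of -0.21 and 1.105 (scanner SD 0.20 each). The probe for NM_001144070, at chr17:48745220-48745279, differed by 0.38 and -2.37. In HN30_CR the first probe was thus brighter and the second dimmer than in HN30. ABCC5 (MRP5), a second exporter of cyclic nucleotides, had levels of 1.90, 0.92, 2.47 and 2.74 in HN4, HN4_CR, HN30 and HN30_CR. It was called in neither line, at -0.98 and 0.27 (scanner SD 0.20 each), but of its other probes, both for NM_001023587, one differed by -0.63 and -0.02 and the other by -0.50 and -1.11.

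ABCC6, a pump of the liver and kidney, was called in neither line by its brightest probe, which differed by -0.77 and 0.93. Of its 4 probes, another one, well above background on every array, passed the limit in opposite directions, at -1.43 in HN4 and 1.25 in HN30, and the one carrying NM_001171 was well above background in HN30_CR alone, 2.75 above the lowest detected level of parental HN30. ABCC10 was called in neither line by its brightest probe (-0.19 and -0.28), while the differences of its 3 probes had both signs in each line and ran up to 1.20 in HN30. Of the 11 members listed as pumps of drugs and conjugates, ABCC2 and ABCG2 were higher in HN4_CR (5.82% of all genes) and none was lower (5.31%), and ABCC2 and ABCC3 were higher and ABCC4 and ABCG2 lower in HN30_CR (12.9% and 8.71%, and 13.6% and 14.6% of genes with a curated transcript). The list's median difference was -0.19 in HN4 and -0.18 in HN30, beside -0.20 and -0.07 for all genes.

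**Figure D3:**
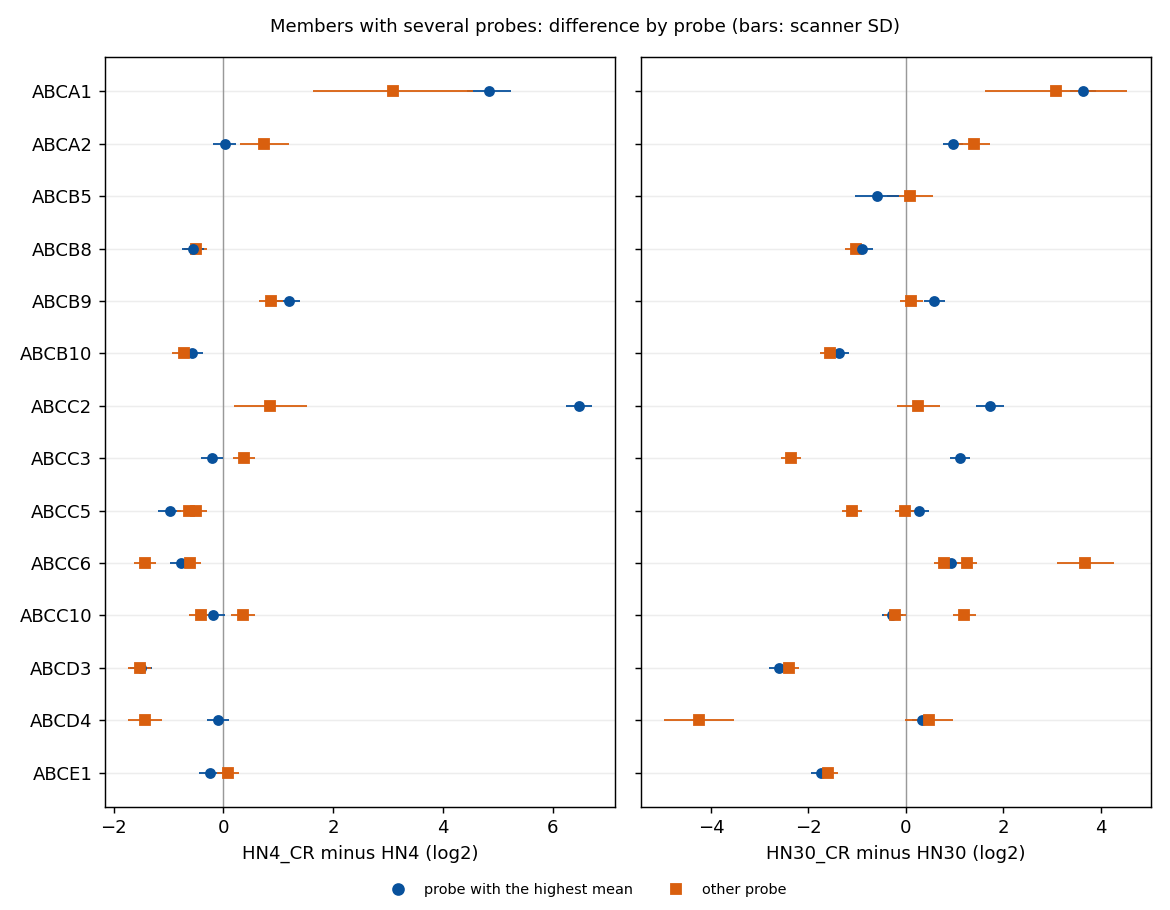
Difference by probe (HN4_CR minus HN4 on the left, HN30_CR minus HN30 on the right, log2) for members with more than 1 probe well above background in a line, with blue circles for the probe used and orange squares for the others, and bars showing 1 scanner SD to each side. The probes of ABCD3, ABCE1 and ABCB10 lie together in HN30, whereas those of ABCC2 lie 5.62 apart in HN4 and those of ABCC3 3.47 apart in HN30. The second ABCC2 probe was not well above background in parental HN4, so that distance is not a measured one.

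ABCC8, the sulfonylurea receptor subunit of a potassium channel, is not a pump. Its levels were -4.84 in HN4, -3.19 in HN4_CR, -4.69 in HN30 and -3.58 in HN30_CR, and neither parental array was well above background. The signal was at least 2.90-fold higher in HN4_CR and at least 2.02-fold higher in HN30_CR. The HN30 call lay at the limit and was lost under 8 of 13 other ways of processing.

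In the mitochondrial membrane, ABCB6 and ABCB10 were called, in different lines. ABCB6, which has been linked to porphyrin transport, had levels of 1.02 in HN4, -1.40 in HN4_CR, 1.31 in HN30 and 1.78 in HN30_CR. HN4_CR was the low array, 5.34-fold below its parent (difference -2.42, scanner SD 0.21), while HN30 differed by 0.47 (scanner SD 0.20). ABCB10, which takes part in heme synthesis, had levels of 2.12, 1.55, 2.25 and 0.87 in HN4, HN4_CR, HN30 and HN30_CR. It was 2.60-fold lower in HN30_CR (difference -1.38, scanner SD 0.20) and differed by -0.57 in HN4. ABCB8 was called in neither line, nor was ABCB5, whose brightest probe was well above background in parental HN30 alone. The brightest ABCB8 probe differed by -0.89 in HN30, and from -1.30 to -0.63 under 5 other scalings. The other ABCB8 probe, well above background on every array, differed by -1.03 in HN30, past the limit. ABCB9, a peptide transporter of the lysosome, had levels of -1.51, -0.32, -1.60 and -1.02 and was higher in HN4_CR by 1.19 (scanner SD 0.21) and not called in HN30, at 0.59.

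ABCD3, a peroxisomal half-transporter of branched-chain and bile-acid precursors, was the member lower in both resistant lines. It had levels of 2.26 in HN4, 0.76 in HN4_CR, 2.25 in HN30 and -0.35 in HN30_CR. The parental arrays were nearly equal and both resistant arrays lay below them. The difference was -1.50 in HN4, a 2.83-fold lower signal, and -2.61 in HN30, a 6.09-fold lower signal, with a scanner SD of 0.20 each. The second probe, at chr1:94941224-94941283, gave -1.53 and -2.40. Both probes carry the accession NM_001122674 (the first at chr1:94944201-94944260, hg19, plus strand), so other ABCD3 transcripts may not be covered. ABCD4, of the lysosome, was called in neither line, at -0.10 and 0.32.

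Of the 4 members that act in translation, ABCE1, ABCF1 and ABCF2 were called lower in HN30_CR. That call was made for 8.71% of all genes and 14.6% of those with a curated transcript. None of the 4 was called in HN4_CR. ABCE1, which splits ribosomes after termination, had levels of 3.55 in HN4, 3.31 in HN4_CR, 4.30 in HN30 and 2.55 in HN30_CR. Parental HN30 was the highest array and HN30_CR the lowest, 3.34-fold apart (difference -1.74, scanner SD 0.20), and the second probe gave -1.59. ABCF1, an initiation factor partner, had levels of 3.16, 3.26, 3.50 and 2.41 and ABCF2 levels of 1.90, 1.62, 2.49 and 1.39 in HN4, HN4_CR, HN30 and HN30_CR. In HN30_CR they differed by -1.08 and -1.11 (scanner SD 0.20 each), and ABCF3 by -0.92, which was not called. In HN4_CR the 4 differences lay between -0.28 and 0.10. All 4 remained below 0 in HN30_CR under each of 5 other scalings, with ABCF1 between -1.50 and -0.70, and the calls of ABCF1 and ABCF2 were lost under 4 of the 5.

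**Figure D4:**
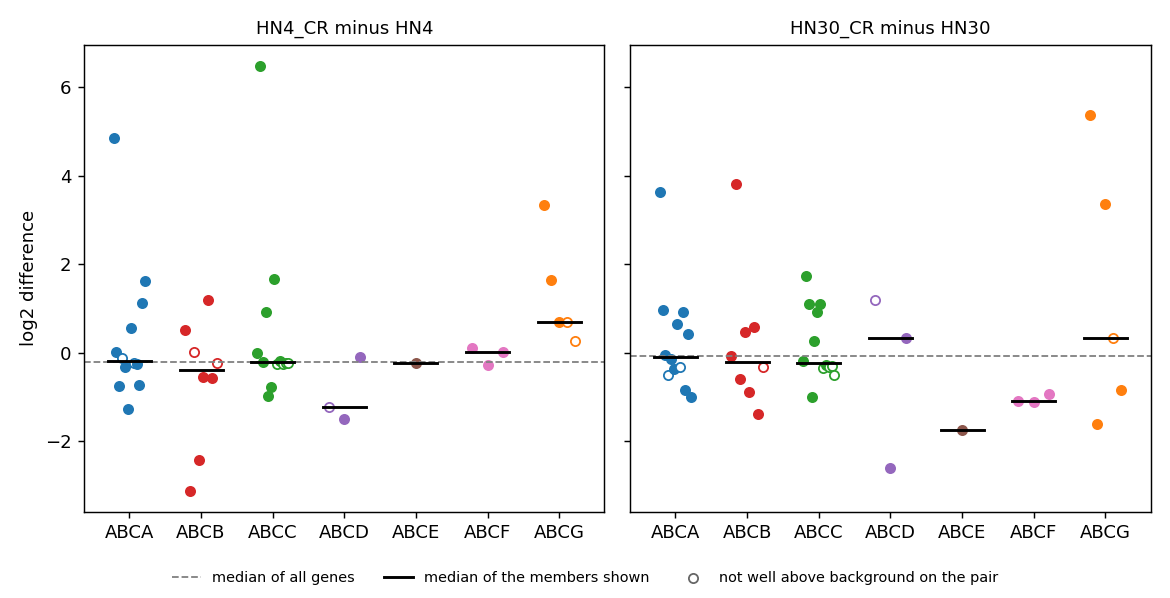
Difference of 44 members by subfamily in HN4 (left) and HN30 (right), on the log2 scale, with black bars at the median of the members shown, a dashed line at the median of all genes and open circles for members not well above background on either array of the pair. The ABCE and ABCF members lie at -1.74 and from -1.11 to -0.92 in HN30 and near 0 in HN4, while the ABCA subfamily in both lines and the ABCG subfamily in HN30 hold points above 3 and below 0.

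Genes that work with the family were set beside it. Of 9 listed targets of the liver X receptors and genes of sterol handling, APOE and PLTP were higher in both resistant lines (2.67% of all genes). APOE, the apolipoprotein that takes up exported cholesterol, had levels of 3.20 in HN4, 5.13 in HN4_CR, 4.22 in HN30 and 6.91 in HN30_CR, and PLTP was well above background on the resistant arrays only. Of the other 7, 1 was higher and 1 lower in HN30_CR (12.9% and 8.71% of all genes), and the list's median difference was -0.06 in HN4 and 0.16 in HN30. Of 13 listed regulators of ABC genes, 2 were lower in HN4_CR (5.31% of all genes), 1 was higher in HN30_CR (12.9%), and among those well above background on all arrays the farthest values were 1.81 for PPARA in HN30 and -1.01 for AHR in HN4. Of 6 other efflux and vault genes, 1 was higher in HN4_CR (5.82% of all genes) and 3 in HN30_CR (12.9%), MVP of the vault particle, ATP7B and SLC47A2, and none was lower. ATP7B, a copper pump that also binds platinum, was higher in both lines by 1.41 and 2.09. SLC47A2, an organic cation exporter, was higher in HN30_CR by 3.08. Of the 3 ABC genes with other symbols, TAP2, a subunit of the antigen peptide transporter, was lower in both lines (1.17% of all genes). Its differences were -1.07 and -1.63, while TAP1, the other subunit, was called in neither line. The third gene was called higher in HN4_CR (5.82% of all genes), 0.74 above the lowest detected level of HN4 and short of the limit.

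The labelled cell type was checked against 9 squamous epithelial genes, which were all well above background on 3 arrays and 8 of them in HN30_CR, where KRT6A was not. Their summed level, relative to the 75th percentile signal, was 252.7 in HN4, 266.8 in HN4_CR, 253.4 in HN30 and 155.9 in HN30_CR. Single genes of that list moved widely, KRT5 by -4.04 and -1.93, and KRT6A by 3.33 in HN4 and, against a dim resistant array, by at least 7.52 downward in HN30. Of 4 fibroblast genes, COL1A1 alone was above background, and the summed level was 0.31 in HN4, 0.97 in HN4_CR, 0.14 in HN30 and 0.66 in HN30_CR, higher on the resistant arrays as ABCA1 and ABCG1 were. COL1A2, DCN and LUM were on no array well above background. Of 3 blood genes, 2 were measured. PTPRC was well above background on every array and called in neither line. CD3E was called higher in HN30_CR (12.9% of all genes), 0.47 above the lowest detected level of HN30 and short of the limit. Of 3 endothelial genes, VWF was higher in both resistant lines, by at least 2.43 in HN4 and by 1.49 in HN30, PECAM1 was well above background in HN4 and HN30_CR only, and CDH5 was called in neither line, with summed levels of 0.26 in HN4, 0.32 in HN4_CR, 0.22 in HN30 and 0.28 in HN30_CR. The part of these shifts in the members' differences was not tested.

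Contrasts with more than 1 array a side had to join the lines or the conditions. The main one compared the resistant with the parental arrays in a limma model with the cell line as a block and 1 residual degree of freedom, adjusted over the 29521 genes that 1 array or more detected above background. No gene passed an adjusted p of 0.05. Of the 37 members tested, 6 had an unadjusted p under 0.05 (ABCA1, ABCC2, ABCC8, ABCD3, ABCG1 and ABCG4), against 8.42% of all genes. ABCC8 entered the fit through its resistant arrays only. Without the filter on dim genes, 4 of 46 members had such a limma p, against 6.87% of all genes. With normexp background correction, 3 of 37 members had it, against 7.22%. The limma estimate was 4.23 ± 0.44 (SE, adjusted p = 0.42) for ABCA1 and 4.35 ± 0.60 (SE, adjusted p = 0.44) for ABCG1. It was 4.10 ± 1.20 (SE, limma adjusted p = 0.54) for ABCC2 and -2.05 ± 0.48 (SE, limma adjusted p = 0.51) for ABCD3. With each array scaled on its median in place of the 75th percentile, ABCG1, ABCA1 and ABCC2 passed, at limma adjusted p of 0.00098, 0.0013 and 0.045, among 341 of 29521 genes (1.16%).

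The parental lines were alike for most members. Set against HN4, parental HN30 was called higher for ABCA1 and ABCG8 (1.95% of all genes were) and lower for ABCA10, ABCA12 and ABCB4 (4.3% of all genes were). ABCA10 and ABCA12 were measured on both arrays, with differences of -1.12 and -1.28, the ABCA10 probe being assigned to ABCA11P as well. The other calls set a detected array against one that was not, and against its lowest detected level the detected array was higher by 0.94 for ABCA1, 0.16 for ABCG8 and 0.49 for ABCB4, short of the limit. The limma coefficient of HN30 against HN4 averages the parental and the resistant arrays. No gene passed for it (52 did under median scaling and 7 with the percentile over probes detected on all arrays, no member among them), and 2 members, ABCA10 and ABCA12, had an unadjusted p under 0.05, against 2.32% of all genes.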

How the data were processed

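RNA of each of the 4 lines was labelled with Cy3 and hybridised to 1 Agilent array. The authors deposited the Feature Extraction 10.7.1.1 output, in which the processed intensity of a spot is background-subtracted and not normalized between arrays, with probe coordinates on hg19. A second deposited table holds log2 values with a median of 4.65 on every array; the sources used here do not state its scaling, and it served as an alternative. Here log2 intensities were scaled on the 75th percentile of the 60901 non-control spots, outlier spots were dropped, replicate spots averaged, and the probe with the highest mean stood for its gene (71 probes for the 46 members, 19 of them with several). By accession, 45 members carried their own symbol in RefSeq. The accession of the ABCF2 probe stands there under a readthrough gene of ABCF2 and H2BK1, and the array's name was kept. Accessions of the only ABCA10 probe stand under ABCA10 and under ABCA11P, so its signal may not be that of ABCA10 alone. Where a group was not well above background, the fold is a bound against the lowest detected signal of that array. Such a bound holds for the main processing only.

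The members, role lists and alternatives were chosen with earlier results of these data known. Values on all arrays are given for members called in at least 1 line and for ABCB1, ABCC1, ABCC2, ABCC3, ABCC4, ABCC5 and ABCG2; at most 2 genes of a list of non-members are given values. The counts cover all 46 members, 2 of which are not reported here by name or value. limma 3.58.1 (R 4.3.3) used eBayes with a trend. Other steps used Python 3.11.15, numpy 2.4.6, pandas 2.3.3 and statsmodels 0.14.6. Scripts were tested on simulated data. Alternatives concerned the background correction, scaling, pseudocount, filter, probe choice, outliers, threshold and limma model.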

Additional observations from a re-analysis of the deposited data

Results flagged for a closer look

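ABCA13, ABCB4 and ABCG2 passed the limit in opposite directions in the 2 lines. ABCA13 differed by 1.62 in HN4 and by -1.001 in HN30, and its HN30 value lies at the limit. ABCB4 differed by -3.11 in HN4 and by 3.82 in HN30, with 1 array of each pair not well above background; with the lowest detected signal in place of the dim one, the HN4 value was -0.84 and no longer passed. ABCG2 differed by 1.65 in HN4 and by -1.60 in HN30, with all 4 arrays well above background. With 1 array per condition, the opposite directions were not tested for any of them.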

How the results depend on the processing

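Each resistant line was paired with its parent through the cell line block of the limma model, and without that block no member was called either; the groups share 1 replicate number, which pairs nothing further. Counts in HN4_CR and HN30_CR rested on the limit and on dim probes. With a limit of 2, 3 members were higher and 2 lower in HN4_CR, 4 higher and 1 lower in HN30_CR, 2 higher and 0 lower in both. Requiring both arrays of a pair to be well above background left 2 lower in HN4_CR, 5 higher in HN30_CR and 1 higher in both. With normexp background correction, 4 were higher and 2 lower in HN4_CR, 4 higher and 5 lower in HN30_CR, and 2 higher in both. The calls of ABCA13, ABCB4, ABCC8 and ABCG2 were then lost in both lines. Calls lost in 1 line included those of ABCA6 and ABCB9 in HN4 and of ABCC2 and ABCC4 in HN30. Median scaling, under which the median of all genes in HN30 moved from -0.07 to -0.49, gave 5 higher and 13 lower in HN30_CR, a family median of -0.57 there and 3 members passing limma. The percentile over probes detected on all arrays moved the median of all genes to 0.19. It gave 11 higher and 4 lower in HN30_CR and a family median of 0.11. ABCC3 in HN30 turned to -0.63 with the mean of its probes and to -2.37 with its dimmest probe. The cause was not tested. The remaining 67 counts, among which the 11 higher in HN30_CR was placed, and 22 medians and 9 limma counts were classed as near their reported value. Of the differences of named members, 365 moved by less than the scanner SD and 139 by more. The calls of ABCA1, ABCG4 and ABCD3 in HN30 and of ABCB6 and ABCG1 in HN4 were kept under all 13 alternatives (for ABCA1, the dimmest probe passed only by its measured value, its bound being 0.80), and that of ABCC8 in HN30 was lost under 8. The number of arrays limits the precision, and members not well above background have only a bound.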

Other observations

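ABCB1 and ABCB4 lie 197993 bases apart on chromosome 7 (hg19, between probes) and differed by 0.51 and -3.11 in HN4 and by -0.08 and 3.82 in HN30. The 5 members of the chromosome 17 cluster, ABCA5, ABCA6, ABCA8, ABCA9 and ABCA10, differed by -1.28 to -0.24 in HN4 and by -0.85 to 0.93 in HN30, with ABCA8 on no array well above background. A probe assigned to an Ensembl transcript of ABCD4, at chr14:74755982-74756041 on the minus strand, differed by -1.42 in HN4 and lay at least 3.0 higher in HN30 than in HN30_CR, which was not well above background, while the RefSeq probe of ABCD4 differed by -0.10 and 0.32; this probe was singled out after its values were seen.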
